A study of Mus musculus with 6 samples.

Results

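The genes described here make and remove reactive oxygen species. The 38 genes, of 32285 in the deposited count tables, were chosen by symbol from textbook roles. The rule uses no measured value, but the set was drawn up with earlier results of these data known. They cover the transcription factor gene Nfe2l2 and its repressor Keap1, haem and quinone enzymes, glutathione synthesis, NADPH supply, superoxide dismutases, catalase and glutathione peroxidases, peroxiredoxins, the thioredoxin system, glutathione S-transferases and NADPH oxidase. All 38 had at least 1 unique molecular identifier (UMI, the tag that marks 1 captured RNA molecule) in each of the 6 libraries.

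As background, NRF2 (the product of Nfe2l2) is held in the cytoplasm and marked for degradation by KEAP1 until oxidants or electrophiles modify KEAP1. NRF2 then binds the antioxidant response element and drives many glutathione, thioredoxin and NADPH genes. Superoxide dismutases turn superoxide into hydrogen peroxide, which catalase, glutathione peroxidases and peroxiredoxins remove. NADPH oxidases make superoxide or hydrogen peroxide on purpose. In the brain, astrocytes are known for a high capacity to make and export glutathione and microglia for a phagocyte-type NADPH oxidase.

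The nuclei came from the pons and medulla, the part of the brainstem that controls breathing and blood pressure, of male C57BL6/J mice. The exposed group was kept for 21 days, from postnatal day 22 to 43, in chronic intermittent hypoxia (CIH): 80 cycles a day over 8 h, each with 60 s of nitrogen to 4.5 to 5% O2 and a return to 21% O2 within up to 5 min. Control mice breathed room air (normoxia) over the same days. Each group had 3 libraries. The labels name no transgene or knockout, and they do not say whether a library is 1 mouse or a pool. The p-values for CIH therefore measure the spread between libraries and not between mice. Those for 1 cell class against others measure the spread of class levels over the libraries, with library differences taken out.

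Nuclei were sorted into classes by how many of 8 marker genes of each cell type they contained, and none of the 38 genes was among those markers. The tested classes were oligodendrocyte-like (12743 nuclei), precursor-like for the oligodendrocyte lineage (405), astrocyte-like (1030), microglia-like (1465), endothelial-like (844), granule neuron-like (3516), excitatory neuron-like (2918) and inhibitory neuron-like (2702) nuclei. They are named below without "-like". A class set by such a gate is a range and not a sharp type: 7.81% of oligodendrocytes, 30.1% of precursors, 24.9% of astrocytes and 11.0 to 14.0% of each other class lay at the edge of the gate. Granule neurons are cells of the cerebellum, which lies outside the labelled region. Endothelial nuclei also carried markers of mural cells, the pericytes and smooth muscle of vessels, at a summed level of 464 to 1931 CPM (UMIs of the gene per 1000000 UMIs of that class in that library).

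The libraries held 26733243 to 46754345 UMIs, of which 20548 to 44810 per library fell on the 38 genes in kept nuclei. Of 43836 barcodes, 40139 were kept and 33204 were gated. The third CIH library (CIH 3) stood apart, with a median mitochondrial share of 0.366% against 0.0624 to 0.0955% in the other 5, and with 5.94% astrocytes against 1.18 to 1.60%. Granule neurons made up 18.7 and 22.7% of the first and second CIH libraries and 4.29 to 7.36% of the other 4. Endothelial nuclei made up 1.60 to 4.59% of the CIH libraries and 0.665 to 1.19% of the normoxia libraries.

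The first CIH library (CIH 1) and the second normoxia library (normoxia 2) held 1563 barcodes in common, while every other pair of libraries shared 3 to 38. The shared barcodes were 33.9% of CIH 1 and 21.1% of normoxia 2. In 1558 of them normoxia 2 had fewer UMIs, at a median of 12.6% of the number in CIH 1, and a median of 92.5% of the genes seen in the normoxia 2 barcode were also seen in CIH 1. The labels say nothing about this overlap, and its source was not tested. The tests of the 38 genes were therefore also run with the shared barcodes removed from normoxia 2. This took out 1163 of its kept nuclei and 6.33% of their UMIs. Summed markers and the medians by role and of related genes were not rerun. Of the nuclei removed, 506 were ungated and 388 were neurons outside the tested classes. Within tested classes the share removed ran from 0% of endothelial nuclei to 15.4% of precursors, so small shifts there say little about the overlap.

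The promoter sequences below are shown because the response element of NRF2 links many of these genes. A core of this element, TGACNNNGC, was searched on both strands from 250 bases before to 50 bases after each start site in RefSeq promoters (GRCm38.p6). Of the 38 genes, 32 had a promoter in that table, and 9 of those (28.1%) held the core, against 14.0% of all 27025 genes. Where the NNN of the core reads TCA, as in Me1, it also contains TGACTCA, the motif of AP-1 factors. The windows of 5 genes whose levels are described below are given as the plus or minus strand on which the gene is read, with the core in capitals. A match is a stretch of letters and no measured binding site.
Prdx1 (chr4:116685456-116685484, plus strand): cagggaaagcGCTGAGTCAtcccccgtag
Me1 (chr9:86695902-86695930, minus strand): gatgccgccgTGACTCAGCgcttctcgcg
Nfe2l2 (chr2:75704885-75704913, minus strand): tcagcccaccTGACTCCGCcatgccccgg
Srxn1 (chr2:152105542-152105570, plus strand): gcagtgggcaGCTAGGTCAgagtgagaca
Gclm (chr3:122245413-122245441, plus strand): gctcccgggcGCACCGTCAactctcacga

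The first question was in which cell classes these genes are expressed. Astrocytes and endothelial nuclei stood above the other classes for many of them, and neurons and precursors below. Each class was compared with the unweighted mean of the other 7 in log2 level (edgeR quasi-likelihood test with library as a block, adjusted p under 0.05 over all genes). After a filter on low counts 34 of the 38 genes were tested. Hmox1, Sod3, Gpx3 and Cybb did not pass it. In astrocytes 17 of the 34 were called higher (background 23.8% of all genes) and 1 lower (19.9%), and in endothelial nuclei 15 were higher (23.0%) and 5 lower (22.1%). Excitatory neurons had 8 higher (36.2%) and 17 lower (28.5%), inhibitory neurons 8 higher (36.0%) and 14 lower (29.0%), and granule neurons 5 higher (29.3%) and 14 lower (24.0%).

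Precursors had 0 called higher (background 12.7%) and 10 lower (14.8%). Oligodendrocytes had 13 called higher (background 33.1%) and 10 lower (30.2%), and microglia 8 higher (27.7%) and 8 lower (28.4%). The median log2 difference of the 34 genes was 0.42 in astrocytes and 0.43 in endothelial nuclei, against -0.02 and -0.10 for all genes tested. It was -0.35 in excitatory, -0.28 in inhibitory and -0.27 in granule neurons, against 0.03, 0.02 and -0.01 for all genes. The lowest median, -0.42, was that of precursors (-0.20 for all genes), and microglia had -0.22 (-0.08) and oligodendrocytes 0.09 (0.00412). Of all 38 genes, 18 had their highest mean level in endothelial nuclei, 8 in microglia, 5 in astrocytes, 3 in excitatory neurons, 2 in oligodendrocytes and 2 in inhibitory neurons. Endothelial nuclei were above the next class in 6 of 6 libraries for Gclm, Sod1, Prdx2, Txn1 and Gsta4. They were above it in 3 of 6 for Cat, Prdx5, Txn2 and Txnip and in 2 of 6 for Srxn1. The rest of the 18 had 4 or 5 of 6. Endothelial nuclei also had the highest median mitochondrial share, 0.510 to 1.67% per library, against 0.0342 to 0.479% in the other tested classes. The part of RNA from outside the nucleus in the endothelial levels was not tested. Among deeper nuclei (1000 genes or more, 1% mitochondrial UMIs or less), the endothelial count was 5 higher and 1 lower. The share of all genes called in that fit is not given here, so this drop cannot be read as particular to the redox genes. Removing the shared barcodes moved the 272 log2 differences by at most 0.06 and ended 3 calls: Sod1 in microglia and granule neurons and Txnrd2, the mitochondrial thioredoxin reductase, in precursors.

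**Figure D1:**
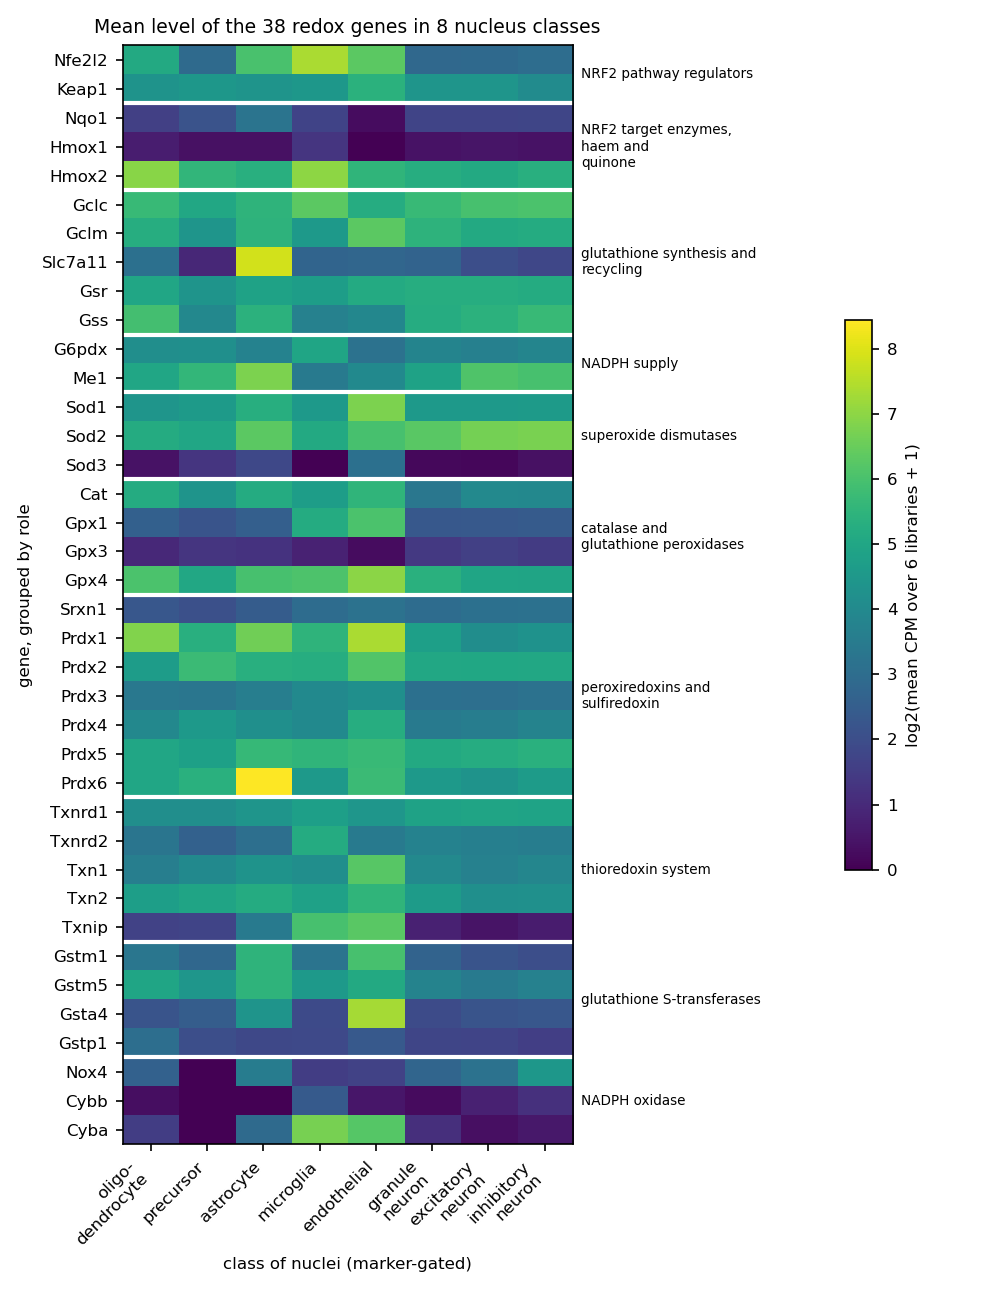
Colour shows the mean level of each of the 38 genes as log2(CPM + 1) over 6 libraries, with genes in rows by role and the 8 classes of nuclei in columns. Slc7a11 and Prdx6 are brightest in astrocytes, at means of 232 and 348 CPM. The endothelial column is the brightest for 18 genes by mean, though not in every library for each of them.

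Among the regulators, Nfe2l2 was highest in microglia, where its level ran from 127 to 215 CPM over the 6 libraries with a median of 164. The mean of 167 ± 29.2 CPM (SD, n = 6) stood above the next class, endothelial nuclei at 78.9 ± 9.42 CPM, in 6 of 6 libraries. The log2 difference of microglia from the mean of the other classes was 3.08 (SE 0.13, edgeR adjusted p = 1.35e-29), and 4.02 in the normoxia libraries alone. In precursors of those libraries 1 UMI is 5.86 to 8.64 CPM. The part of such sparse counts in the larger value was not tested. Neurons and precursors had the lowest levels, at 6.31 ± 1.71 CPM in granule neurons and 7.06 ± 1.38 CPM in inhibitory neurons. Keap1, the adaptor that marks NRF2 for degradation, was flatter, from 16.0 ± 1.96 CPM in inhibitory neurons to 41.5 ± 18.2 CPM in endothelial nuclei. It was called higher only in endothelial nuclei (0.94) and lower only in inhibitory neurons (-0.41), among the 8 classes.

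Of the haem and quinone enzymes, Hmox2, the constitutive haem oxygenase, had its highest levels in microglia (128 ± 10.7 CPM) and oligodendrocytes (124 ± 10.6 CPM). These classes could not be ordered, since microglia were above oligodendrocytes in 2 of 6 libraries. In oligodendrocytes Hmox2 ran from 112 to 139 CPM with a median of 123, against a mean of 52.6 CPM over the other classes, a log2 difference of 1.61 (SE 0.06, edgeR adjusted p = 2.84e-31). Nqo1, the NAD(P)H quinone reductase, was highest in astrocytes at 8.43 ± 5.63 CPM, a log2 difference of 1.75 that passed the test. Hmox1, the inducible haem oxygenase, stayed at or below 1.47 CPM in every class and was at 0 UMIs in endothelial nuclei, which allows up to 2.13 CPM at 3 counts. Hmox2 overlaps Cdip1 on the other strand, and whether counting used strand is not stated.

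Glutathione genes were split between classes. Fibroblast-like nuclei, a class too small to test, had 1551 CPM of Slc7a11, the cystine importer that feeds glutathione synthesis. Among the 8 tested classes Slc7a11 was highest in astrocytes, with 188 to 264 CPM and a median of 235. Its mean there was 232 ± 31.1 CPM (SD, n = 6) against a mean of 4.43 CPM over the other classes, and astrocytes were above the next class in 6 of 6 libraries. The log2 difference was 5.79 (SE 0.21, edgeR adjusted p = 5.90e-32), 6.79 without the third CIH library and 6.87 in the normoxia libraries alone. Precursors, the lowest class, had a mean of 0.915 CPM. There 1 UMI is 1.83 CPM in CIH 3 and 5.86 CPM or more in the other libraries. A mean so low leaves room for UMIs in CIH 3 alone. Without that library a fitted fold against precursors has no fixed size, and the 2 larger values carry this limit. Gss, the glutathione synthetase, was instead highest in oligodendrocytes at 59.8 ± 7.79 CPM (log2 difference 1.37) and low in microglia (12.2 ± 4.75 CPM, -1.60) and endothelial nuclei (14.0 ± 8.79 CPM, -1.12). Gss overlaps Acss2 on the other strand. Gclm, the modifier subunit of glutamate-cysteine ligase, was highest in endothelial nuclei (79.0 ± 28.3 CPM, 0.88) and low in microglia (22.7 ± 7.71 CPM, -1.01). Gclc, the catalytic subunit of that enzyme, showed the opposite order: it was highest in microglia at 78.9 ± 12.1 CPM (0.52) and lower than the other classes in endothelial nuclei at 36.4 ± 12.8 CPM (-0.89). Gsr, which reduces oxidised glutathione, varied little, from 19.7 ± 10.2 CPM in precursors to 37.4 ± 4.80 CPM in excitatory neurons.

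NADPH supply differed by gene as well. Me1, malic enzyme, was highest in astrocytes at 110 ± 23.4 CPM and stood above excitatory neurons, the next class, in 6 of 6 libraries. In excitatory neurons it ran from 61.0 to 75.6 CPM with a median of 68.3, a log2 difference of 1.12 (SE 0.09, edgeR adjusted p = 6.16e-17). Microglia (10.1 ± 10.5 CPM, -2.46) and endothelial nuclei (15.1 ± 10.4 CPM, -1.49) were lower in Me1 than the other classes. G6pdx, the entry enzyme of the pentose phosphate pathway, was highest in microglia at 30.2 ± 6.24 CPM (1.06) and lowest in endothelial nuclei at 7.99 ± 4.62 CPM (-1.15).

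The superoxide dismutases divided by compartment. Sod2, the mitochondrial enzyme, was highest in neurons: in inhibitory neurons it ran from 92.9 to 127 CPM with a median of 104, a log2 difference of 1.04 (SE 0.07, edgeR adjusted p = 4.11e-19). Excitatory neurons had 103 ± 8.02 CPM (1.00), microglia 33.7 ± 7.54 CPM (-1.18) and oligodendrocytes 35.7 ± 9.43 CPM (-0.64). Sod1, the cytosolic enzyme, was highest in endothelial nuclei at 108 ± 21.6 CPM (1.57), above every other class in 6 of 6 libraries. Sod1 overlaps Scaf4 on the other strand. Sod3, the secreted enzyme, did not pass the filter and reached 7.76 ± 5.56 CPM in endothelial nuclei, its highest among the 8 classes.

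Catalase and the glutathione peroxidases remove peroxides, and Cat, Gpx1 and Gpx4 each had their highest mean in endothelial nuclei. Cat was called higher in oligodendrocytes (35.5 ± 2.61 CPM, 0.97), astrocytes (35.7 ± 6.70 CPM, 0.88) and endothelial nuclei (44.9 ± 35.9 CPM, 0.83), and lower in granule neurons (9.21 ± 3.19 CPM, -1.33). Gpx1 was high in endothelial nuclei (65.3 ± 25.5 CPM, 2.70) and microglia (35.9 ± 9.56 CPM, 2.29), with 3.57 to 4.98 CPM in the other 6 classes. Gpx4, the peroxidase that acts on membrane lipids, was highest in endothelial nuclei at 127 ± 18.6 CPM (1.04) and lowest in inhibitory neurons at 29.7 ± 6.11 CPM (-0.78). Gpx3 did not pass the filter and was at 2.00 CPM in excitatory neurons, its highest class, 1.78 CPM in inhibitory neurons and 0.221 CPM in endothelial nuclei, its lowest.

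Among the peroxiredoxins, Prdx6 was an astrocyte gene, with 302 to 404 CPM over the libraries and a median of 350. Its mean of 348 ± 36.3 CPM stood against 30.4 CPM over the other classes, a log2 difference of 3.63 (SE 0.11, edgeR adjusted p = 8.55e-37), and against 53.0 ± 18.9 CPM in endothelial nuclei, the next class. Prdx1 was high in endothelial nuclei (166 ± 30.9 CPM) and glia and low in neurons, down to 16.5 ± 7.60 CPM in excitatory neurons (-1.60). In oligodendrocytes Prdx1 ran from 81.8 to 175 CPM with a median of 100, a log2 difference of 1.69 (SE 0.08, edgeR adjusted p = 2.32e-27). Prdx2 and Prdx4 were called higher in endothelial nuclei (0.67 and 1.06), whereas Prdx3 and Prdx5, the mitochondrial members, were called higher in 0 of 8 classes. Srxn1, which repairs over-oxidised peroxiredoxins, was called higher in excitatory (0.50) and inhibitory (0.57) neurons at means of 7.59 and 7.93 CPM.

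In the thioredoxin system, Txnip, the inhibitor of thioredoxin, had the widest range between classes. In endothelial nuclei it ran from 51.6 to 118 CPM with a median of 64.7, and in microglia from 50.5 to 73.9 CPM with a median of 63.8. Endothelial nuclei were above microglia in 3 of 6 libraries, so these classes did not differ beyond their spread. Excitatory, inhibitory and granule neurons had 0.367, 0.553 and 0.728 CPM. The log2 difference from the other classes was 4.64 (SE 0.30, edgeR adjusted p = 1.32e-20) in endothelial nuclei and 4.41 (SE 0.24, adjusted p = 7.82e-24) in microglia. These became 5.84 and 5.65 in the normoxia libraries alone, and the endothelial value was 3.31 in deeper nuclei (1000 genes or more, 1% mitochondrial UMIs or less). The normoxia values include precursors, where 1 UMI is 5.86 to 8.64 CPM. The part of such sparse counts in them was not tested. Txn1, the cytosolic thioredoxin, was highest in endothelial nuclei at 75.1 ± 19.4 CPM (1.72). Txnrd1, the cytosolic reductase, was called higher in all 3 neuron classes, by 0.34 to 0.37. Txn2, the mitochondrial thioredoxin, was called higher in astrocytes (0.54) and oligodendrocytes (0.21).

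The glutathione S-transferases, which couple glutathione to electrophiles, were genes of endothelial nuclei and glia. Gsta4, which acts on the lipid peroxidation product 4-hydroxynonenal, ran from 103 to 247 CPM in endothelial nuclei with a median of 149, and its mean in the next class, astrocytes, was 19.5 ± 8.76 CPM. The log2 difference was 4.70 (SE 0.20, edgeR adjusted p = 3.19e-28), and 2.86 in the same deeper nuclei, which left 8 to 98 endothelial nuclei per library. Gstm1 was high in endothelial nuclei (62.3 ± 24.8 CPM, 2.51) and astrocytes, where it ran from 11.3 to 68.0 CPM with a median of 47.3 (2.48, SE 0.26, edgeR adjusted p = 5.11e-12). Gstp1 was highest in oligodendrocytes, from 5.98 to 9.20 CPM with a median of 7.24 (1.78, SE 0.20, edgeR adjusted p = 1.81e-11). Gstm5 was called higher in astrocytes (1.19) and oligodendrocytes (0.86). Gstm and Gstp genes have near-identical relatives in the genome, so counts of one member may miss or include reads of another.

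Among the 8 tested classes, the NADPH oxidase genes Cyba and Cybb were highest in microglia and Nox4 in inhibitory neurons. Perivascular macrophage-like nuclei, a class too small to test, had 189 CPM of Cyba and 214 CPM of Cybb. Cyba, the membrane subunit p22phox, was highest in microglia, with 80.3 to 130 CPM and a median of 101, and next in endothelial nuclei, with 43.7 to 103 CPM and a median of 72.6. Its log2 difference was 5.99 in microglia (SE 0.22, edgeR adjusted p = 5.60e-30) and 5.26 in endothelial nuclei (SE 0.33, adjusted p = 9.88e-20). Nox4, the oxidase that makes hydrogen peroxide without activation, was highest in inhibitory neurons, with 15.5 to 26.7 CPM and a median of 21.2, above astrocytes (10.6 ± 4.44 CPM) in 6 of 6 libraries. Its log2 difference there was 3.15 (SE 0.27, edgeR adjusted p = 6.61e-15). Precursors had 0 UMIs of Cyba and Nox4 in 1249785 UMIs, which allows up to 2.40 CPM at 3 counts, and a fitted fold against them has no fixed size. With precursors left out of the comparison, the log2 differences were 5.22 and 4.42 for Cyba in microglia and endothelial nuclei and 2.29 for Nox4. Cybb, the catalytic subunit of the phagocyte oxidase, did not pass the filter. It was highest in microglia at 4.21 ± 6.30 CPM, with 0 UMIs in at least 1 library, and at 0 in precursors and astrocytes.

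**Figure D2:**
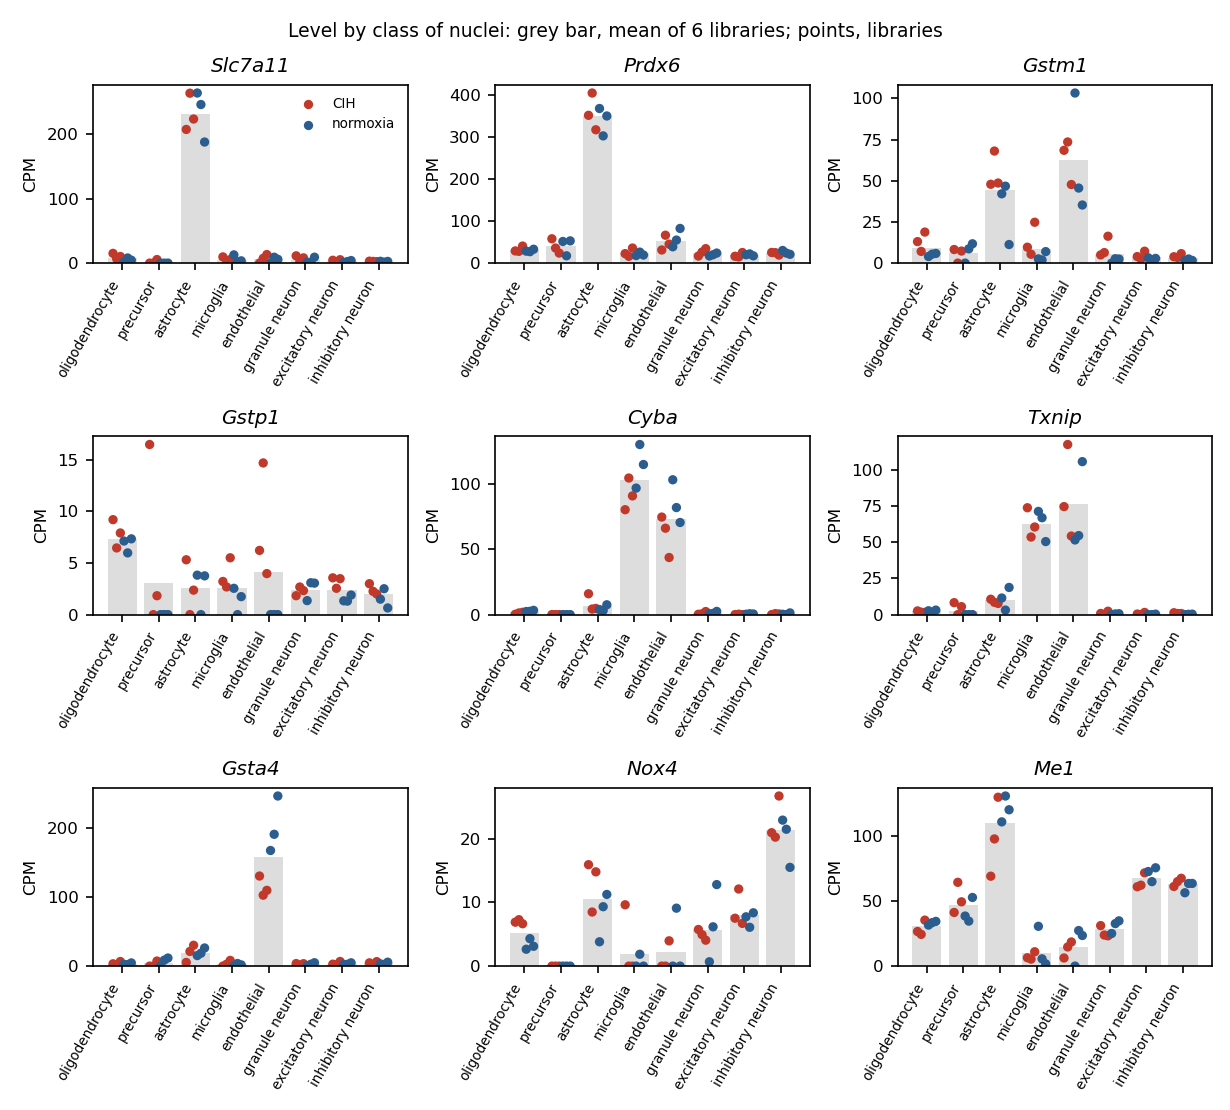
Each panel plots the level of 1 gene in CPM against the class of nuclei, with points for the 3 CIH (red) and 3 normoxia (blue) libraries and a grey bar for the mean of 6. Slc7a11 and Prdx6 stand out in astrocytes, Cyba and Txnip in microglia and endothelial nuclei, Gsta4 in endothelial nuclei (103 to 247 CPM) and Nox4 in inhibitory neurons (15.5 to 26.7 CPM).

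The second question, which the study was designed for, was what differed after CIH. None of the 38 genes passed the edgeR test (adjusted p under 0.05 over all genes) in all nuclei or in any class. In all nuclei 0 of 38 were called, against a background of 0.0101% (2 genes), and the unadjusted p was under 0.05 for 7 (background 11.0%). DESeq2 called 1, Gstm1 (background 1.18%). In sums over all nuclei, a different mix of classes and a different level per nucleus cannot be told apart.

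The glutathione S-transferase gene Gstm1 came nearest in all nuclei, at 6.52, 6.19 and 15.4 CPM in the CIH libraries and 3.47, 3.82 and 3.26 CPM in normoxia. CIH 3 was the highest, and the groups did not overlap. The log2 fold change was 1.42 (SE 0.37, edgeR adjusted p = 0.355), and the DESeq2 adjusted p was 0.0133. With CIH 3 left out it was 0.84 with an edgeR adjusted p of 0.0214 (background of calls 2.62% in that fit), and with the shared barcodes removed it was 1.42 with an adjusted p of 0.344. The summed markers of granule neurons, endothelial nuclei and astrocytes also stood higher in CIH in all nuclei, with 8 of 8 markers above normoxia in each list and medians of 1.05, 1.61 and 1.12. Without the third CIH library these medians were 1.40, 0.81 and 0.14. The part of these classes in the Gstm1 value of all nuclei was not tested.

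A further 5 genes had CIH libraries above all normoxia libraries in the same sums, so that 6 of 38 did (background 9.86%), and 0 were below (9.19%). Gstp1 was 4.33, 4.35 and 4.34 CPM in CIH against 3.47, 3.25 and 2.93 CPM in normoxia (log2 fold change 0.43, SE 0.13, edgeR adjusted p = 0.392). Txnip was 3.73, 3.19 and 4.32 CPM against 2.63, 2.47 and 2.78 CPM (0.51, SE 0.17, edgeR adjusted p = 0.400). Srxn1 was 6.78, 7.11 and 8.96 CPM against 5.66, 5.83 and 5.59 CPM (0.42, SE 0.15, edgeR adjusted p = 0.410). The other two, Txn2 (0.22) and Sod3 (1.41, on 7 to 58 UMIs a library), were picked out after their values were seen.

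Of 9 regulators and usual NRF2 target genes, Slc7a11 and Srxn1 had the highest log2 fold changes in all nuclei, and the groups overlapped for all but Srxn1. Nfe2l2 was 17.8, 18.1 and 24.8 CPM in CIH against 17.8, 16.4 and 18.5 CPM in normoxia (log2 fold change 0.20, 0.01 without the third CIH library). Keap1 had 0.13, Nqo1 0.29, Gclm 0.16, Gclc -0.10 and Txnrd1 -0.03, and in each of these the groups overlapped. Hmox1 had 7, 12 and 36 UMIs in CIH against 19, 18 and 20 in normoxia, a log2 fold change of 0.11 that became -0.57 without the third CIH library. Slc7a11 was 21.2, 12.1 and 26.5 CPM in CIH against 12.6, 9.10 and 9.15 CPM in normoxia. Its groups overlapped, with a log2 fold change of 0.95 (SE 0.29, edgeR adjusted p = 0.390). Slc7a11 had a mean of 232 CPM in astrocytes and 1551 CPM in fibroblast-like nuclei. Astrocytes made up 5.94% of CIH 3 and 1.18 to 1.60% of the other libraries. Fibroblast-like nuclei made up 0.414 to 0.460% of the CIH libraries and 0.136 to 0.362% of the normoxia libraries. The part of these classes in the Slc7a11 value of all nuclei was not tested.

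**Figure D3:**
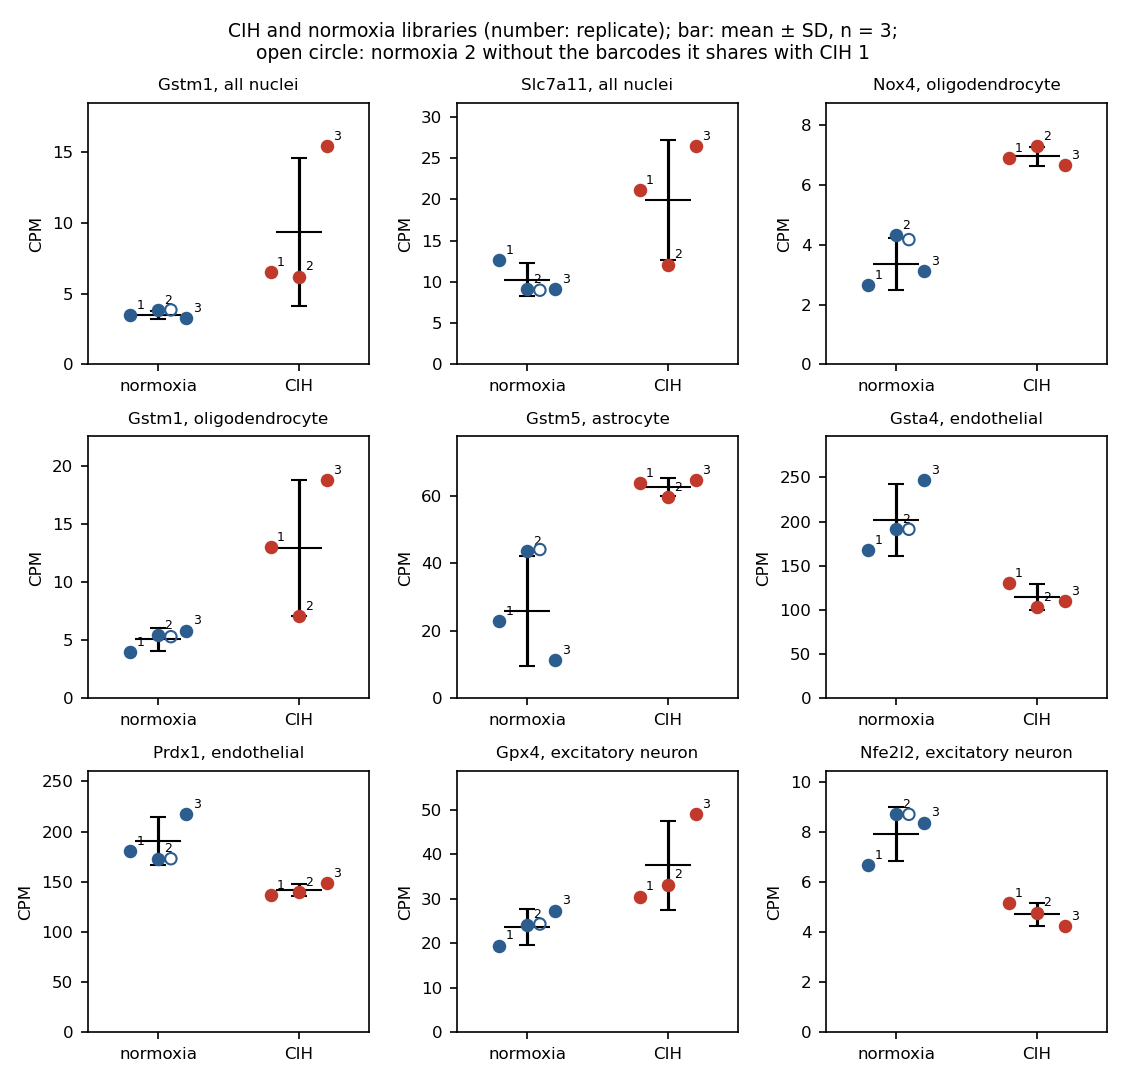
Each panel plots CPM of 1 gene in 1 class for the 3 normoxia (blue) and 3 CIH (red) libraries, numbered by replicate, with the mean ± SD; the open circle is normoxia 2 without the barcodes it shares with CIH 1. The CIH libraries lie above normoxia for Nox4 in oligodendrocytes (6.66 to 7.30 against 2.65 to 4.31 CPM) and below it for Gsta4 in endothelial nuclei (103 to 131 against 168 to 247 CPM), and the open circle lies beside the filled one in each panel.

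In oligodendrocytes 0 of 34 genes were called (background 0.00%), with 5 at an unadjusted p under 0.05 (background 7.36%): Nox4, Gstm1, Cyba and, picked out after their values were seen, Slc7a11 (1.17) and Srxn1 (0.93). The oxidase gene Nox4 was 6.90, 7.30 and 6.66 CPM in CIH against 2.65, 4.31 and 3.11 CPM in normoxia, on 16 to 69 UMIs a library. All CIH libraries lay above normoxia, with a log2 fold change of 1.05 (SE 0.25, edgeR adjusted p = 0.447), 1.08 with CIH 3 left out and 1.07 with the shared barcodes removed. Gstm1 had 51, 34 and 195 UMIs in CIH (7.09 to 18.8 CPM) against 24, 39 and 47 UMIs in normoxia (3.98 to 5.85 CPM), and the groups did not overlap (log2 fold change 1.39, SE 0.34, edgeR adjusted p = 0.465; 0.96 without the third CIH library). Keap1 also lay above normoxia in all CIH libraries and was picked out after its values were seen, so 3 genes were higher without overlap (background 6.16%) and 1 was lower (7.02%).

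The lower one was Cyba, at 1, 6 and 18 UMIs in CIH (0.256, 1.25 and 1.74 CPM) and 14, 18 and 26 UMIs in normoxia (2.32, 2.51 and 3.24 CPM). Its log2 fold change was -1.11 (SE 0.46, edgeR adjusted p = 0.673), and -1.73 without the third CIH library. Microglia markers in the same oligodendrocyte nuclei summed to 80.5, 70.7 and 73.0 CPM in CIH against 117, 117 and 144 CPM in normoxia, with 0 of 7 tested markers higher. Astrocyte markers in these nuclei summed to 111, 86.1 and 279 CPM in CIH against 76.6, 103 and 87.4 CPM in normoxia, with 8 of 8 higher and 2 of 8 without the third CIH library. Inhibitory transmitter markers, the class where Nox4 is highest, summed to 36.3, 41.7 and 68.2 CPM in CIH against 37.7, 44.5 and 58.3 CPM in normoxia. The part of RNA from other classes in the Cyba, Gstm1, Nox4 and Slc7a11 values was not tested.

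In astrocytes 17 genes passed the filter, 0 were called (background 0.00%) and 1 had an unadjusted p under 0.05 (6.08%). That gene, Gstm5, was 63.8, 59.5 and 64.6 CPM in CIH against 22.9, 43.6 and 11.3 CPM in normoxia, on 3 to 109 UMIs a library. The CIH libraries lay close together and all above normoxia, with a log2 fold change of 1.23 (SE 0.38, edgeR adjusted p = 0.688). It was 1.87 without the second normoxia library. Gstm1 (0.63) and Gclc (0.51) also had 3 higher CIH libraries, so 3 of 17 did (background 5.06%) and 0 were lower (5.43%). In microglia 0 of 14 were called (background 0.00%) and 0 had an unadjusted p under 0.05 (4.90%). Nfe2l2 was 167, 180 and 215 CPM in CIH against 127, 153 and 160 CPM in normoxia, the 1 gene higher without overlap (5.95%; 0 were lower, 5.02%), with a log2 fold change of 0.33 (SE 0.17, edgeR adjusted p = 0.975).

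In endothelial nuclei 3 of 13 tested genes had a log2 fold change above 0 (background 47.6%) and 10 were below. None was called (background 0.00%), 1 had an unadjusted p under 0.05 (7.69%), 2 lay below normoxia without overlap (5.39%) and 0 above (8.23%). Gsta4 was 131, 103 and 110 CPM in CIH against 168, 191 and 247 CPM in normoxia, on 13 to 83 UMIs a library (log2 fold change -0.91, SE 0.26, edgeR adjusted p = 0.584). The value was -0.84 without the third CIH library. Prdx1 was 137, 140 and 148 CPM in CIH against 181, 173 and 217 CPM in normoxia (-0.49, SE 0.24, edgeR adjusted p = 0.680). Mural cell markers in these nuclei summed to 890, 1015 and 464 CPM in CIH against 1355, 1931 and 793 CPM in normoxia, and 2 of 77 ribosomal protein genes were higher, at a median of -0.62. Their part in the lower values was not tested. No shared barcode fell in endothelial nuclei.

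Gpx4 was among the genes with the smallest p in both excitatory and inhibitory neurons. In excitatory neurons 0 of 30 were called (background 0.00%), and Gpx4, Nfe2l2 and, seen afterwards, Sod1 (0.50) had an unadjusted p under 0.05 (7.47%). Gpx4 was 30.5, 33.2 and 49.0 CPM in CIH against 19.5, 24.2 and 27.3 CPM in normoxia, without overlap (0.66, SE 0.20, edgeR adjusted p = 0.539; 0.38 without the third CIH library). Nfe2l2 was lower in all CIH libraries, at 5.15, 4.78 and 4.23 CPM against 6.68, 8.71 and 8.38 CPM (-0.79, SE 0.25, edgeR adjusted p = 0.572; -0.72 without the third CIH library). Microglia markers, from the class where Nfe2l2 is highest, summed in excitatory neurons to 97.8, 92.8 and 76.4 CPM in CIH against 107, 100 and 116 CPM in normoxia, and their part was not tested. Srxn1 was the second gene higher without overlap (0.43), so 2 were higher (7.45%) and 1 lower (5.08%).

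In inhibitory neurons 0 of 30 were called (background 0.00718%), and Gstm1 and Gpx4 had an unadjusted p under 0.05 (7.05%). Gstm1 was 3.85, 3.38 and 5.75 CPM in CIH against 1.50, 2.51 and 1.62 CPM in normoxia, on 6 to 23 UMIs a library (1.24, SE 0.38, edgeR adjusted p = 0.543). Gpx4 was 30.4, 28.5 and 41.5 CPM against 24.9, 25.7 and 27.0 CPM (0.39, SE 0.16, edgeR adjusted p = 0.681), and 0.15 without the third CIH library. These were the 2 genes higher without overlap (6.68%), and 0 were lower (5.29%). Astrocyte markers in these nuclei summed to 121, 93.1 and 141 CPM in CIH against 93.8, 87.5 and 84.4 CPM in normoxia, and their part was not tested.

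In granule neurons 0 of 27 were called (background 0.00%) and 0 had an unadjusted p under 0.05 (5.27%). Prdx3, a mitochondrial peroxiredoxin, was 8.64, 7.82 and 12.2 CPM in CIH against 5.49 to 6.18 CPM in normoxia, the 1 gene higher without overlap (5.39%; 0 were lower, 5.80%), with a log2 fold change of 0.63 (SE 0.30, edgeR adjusted p = 0.886). Gstm1 was left out of this test by the filter, with 19, 31 and 28 UMIs in CIH against 0, 6 and 4 in normoxia. With no filter it was called in granule neurons (edgeR adjusted p = 0.00279, background 0.502%), as was Gpx4 in excitatory neurons (adjusted p = 0.00742, background 0.937%). Astrocyte markers in granule neurons summed to 577, 601 and 643 CPM in CIH against 454, 436 and 351 CPM in normoxia. Their part in the Gstm1 counts was not tested. In precursors 0 of the 38 genes passed the filter. Of all 2885 genes tested there 0.00% were called, 4.47% had an unadjusted p under 0.05, 50.4% were above 0, and 5.51% were higher and 4.33% lower without overlap.

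**Figure D4:**
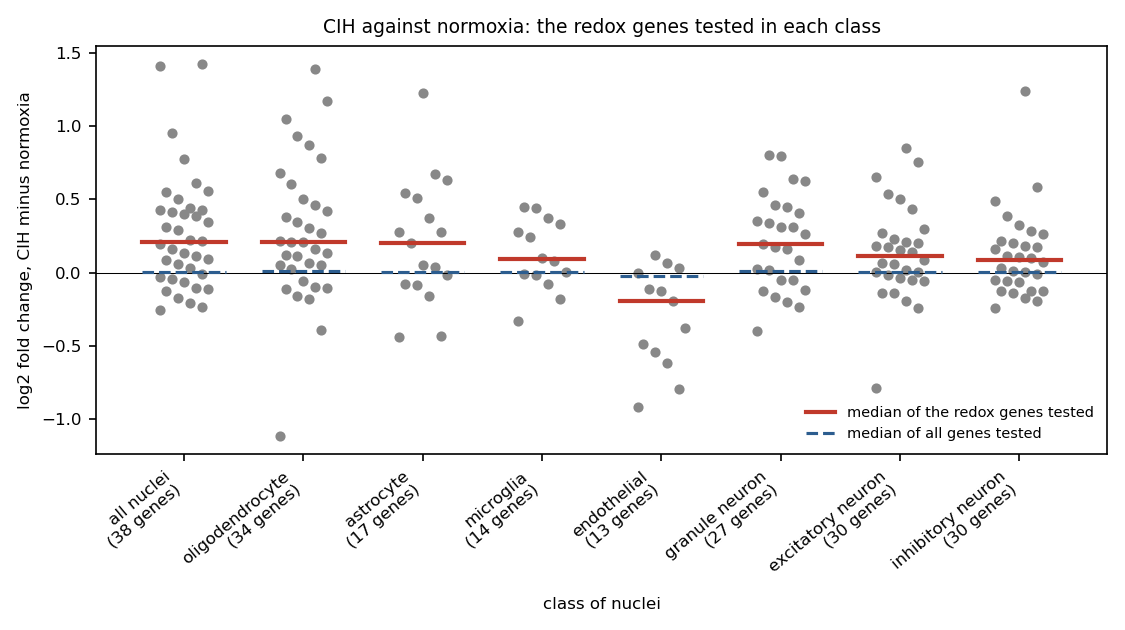
Points are log2 fold changes of CIH over normoxia for the redox genes that passed the filter in all nuclei and in 7 classes, the red line is their median and the dashed blue line the median of all genes tested. The medians run from -0.19 in endothelial nuclei (13 genes) to 0.21 in all nuclei (38 genes), and no point passed the test.

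The share of the 38 genes above their normoxia level in all nuclei turned with the third CIH library. With it, 27 of 38 had a log2 fold change above 0 (background 51.2%) with a median of 0.21, and 15 of 38 with a median of -0.03 without that library. Oligodendrocytes went from 26 of 34 (background 52.4%) and a median of 0.21 to 16 of 34 and -0.03. Without the shared barcodes the median in all nuclei was 0.21, and the log2 fold changes of the genes tested moved by at most 0.07 in all nuclei and in each class. Astrocytes had 11 of 17 above 0 (background 50.8%), with a median of 0.20, and 0.07 without that library and 0.01 without normoxia 2. Granule neurons had 19 of 27 (51.7%), with medians of 0.20 and 0.06, and excitatory neurons 21 of 30 (50.6%), with 0.11 and -0.04. Inhibitory neurons had 19 of 30 (51.5%), with 0.09 and -0.06, and microglia 9 of 14 (51.5%), with 0.09 and 0.01, and 0.01 without normoxia 2. In endothelial nuclei it was -0.19 and -0.17. The endothelial median turned with the stricter gate, to 0.02 with 3 of 6 genes above 0, and with no filter on low counts, to 0.09 with 22 of 37 (0.16 for all genes).

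Ribosomal protein genes and mitochondrial RNAs moved in the same library. In all nuclei 81 of 82 ribosomal protein genes were higher in CIH at a median of 0.47, and 0.01 without the third CIH library, and 13 of 13 mitochondrial RNAs had a median of 0.89 and 0.28 in turn. In oligodendrocytes 80 of 81 ribosomal protein genes were higher at 0.38, and the median was -0.10 without that library. Their part in the values of the redox genes was not tested.

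**Figure D5:**
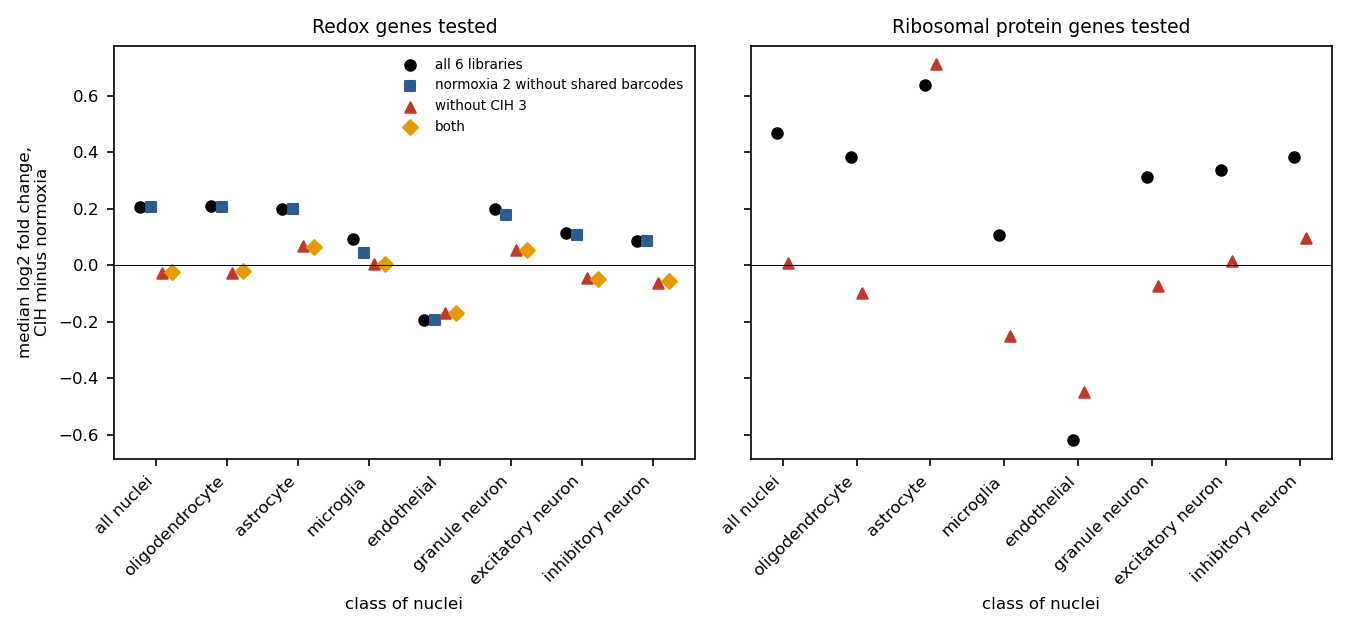
The left panel plots the median log2 fold change of the redox genes tested in all nuclei and 7 classes with all 6 libraries, with the shared barcodes removed, with CIH 3 left out and with both changes; the right panel gives ribosomal protein genes with and without that library. In all nuclei the redox median goes from 0.21 to -0.03 and the ribosomal median from 0.47 to 0.01 when the third CIH library is left out.

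By role, the glutathione S-transferases had the highest median in all nuclei, with 4 of 4 above 0 at 0.69, and 3 of 4 at 0.23 without the third CIH library. Superoxide dismutases had 3 of 3 at 0.43, peroxiredoxins with Srxn1 6 of 7 at 0.34, and catalase with the glutathione peroxidases 3 of 4 at 0.32. Without the third CIH library these medians were -0.03, -0.03 and -0.10. The thioredoxin system had 4 of 5 at 0.22, glutathione synthesis 2 of 5 at -0.04, and NADPH supply (G6pdx and Me1) 0 of 2 at -0.13. The 3 NADPH oxidase genes had 0 of 3 above 0, at -0.13, and -0.21 without the third CIH library.

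Further genes of the same pathways, from lists of related function, were described in the same way, and 0 were called in all nuclei. Of 27 other genes linked to NRF2, 20 were above 0 (background 51.2%) at a median of 0.15, and 11 of 26 at -0.01 without the third CIH library. Ephx1, an epoxide hydrolase, was 7.42, 7.15 and 6.68 CPM in CIH against 4.83, 4.34 and 3.47 CPM in normoxia (0.75, SE 0.15, edgeR adjusted p = 0.275). Aox1, aldehyde oxidase, had 0.77, and Aldh1a1, a retinaldehyde dehydrogenase, had 1.36 with 119.8 CPM in the third CIH library and 20.5 to 26.0 CPM in the other 5. Other glutathione S-transferases had 12 of 14 above 0 at 0.17, among them Gstm7 (0.55), Gstm2 (0.66) and Mgst1 (1.06). Other redox enzymes had 16 of 21 at 0.10, among them Msra (0.65), which reduces oxidised methionine, Gpx8 (1.43) and Txnrd3 (-0.41). Gpx8 was 0.452, 0.743 and 1.51 CPM in CIH against 0.267, 0.325 and 0.410 CPM in normoxia. Other oxidant-producing genes had 10 of 15 at 0.12. Of these, Xdh, xanthine dehydrogenase, was 3.24, 2.58 and 7.51 CPM in CIH against 1.77, 1.11 and 1.86 CPM in normoxia (1.50), Nos1, the neuronal nitric oxide synthase, had 0.52 and Maob 0.59.

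Whether the response to CIH differed between classes was tested for each class against the mean of the other classes. In limma, 0 of 272 pairs of gene and class were called, as were 0 of all 14710 genes in each class. An unadjusted p under 0.05 was seen for 17 pairs (background 4.94%), and the smallest limma adjusted p was 0.525. The same contrast was also fitted in edgeR, which called 0 of 272. Of all 14710 genes it called 57 in endothelial nuclei, 1 in excitatory and 1 in inhibitory neurons, and 0 in the other classes. An unadjusted p under 0.05 was seen for 21 pairs (7.72%) against 5.75% of all genes. The smallest edgeR adjusted p was 0.157, for Prdx1 in endothelial nuclei. Without the shared barcodes 0 pairs were called (57 of all 14709 genes in endothelial nuclei) and the smallest edgeR adjusted p was 0.164. The opposite signs of Nfe2l2 in excitatory neurons and microglia were not tested against each other. Nor were those of Gsta4 in endothelial nuclei and the summed nuclei, and both are given as values only.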

How the data were processed

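The deposited files hold raw UMI counts per gene and barcode, which the authors made with Cell Ranger (6.1.2 per the file headers, 3.1.0 per the submitters' processing notes). Those notes also list Seurat 4.0 and the mm10 build. Intron counting and strand use are not given in the sources used here. Kept nuclei had 500 or more genes and no more than 5% mitochondrial UMIs. They were gated on 8 markers per class (at least 3, and 2 more than any other class). Nuclei with mixed markers were left out, no doublet caller was used, and removal of top Scrublet scores was an alternative. Neuron subclasses followed granule and transmitter markers, with thresholds set after marker counts were seen.

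UMIs were summed per library and class where every library had at least 20 nuclei, and tested with edgeR 4.0.16 (R 4.3.3; TMM, filterByExpr, quasi-likelihood test, Benjamini-Hochberg over all genes). DESeq2 1.42.0 and limma 3.58.1 were also used, and the fits were tested on simulated data. Matrices were read with Python 3.11.15 and scanpy 1.11.5. The members and lists were chosen with earlier results of these data known. Genes were named by rule: up to 3 per class with an adjusted p under 0.05, a log2 difference of at least 1 and 1 direction in 6 libraries; called genes, or up to 3 of smallest p without overlap, for CIH; NRF2 genes in all nuclei; NADPH oxidase genes in their highest class; and up to 3 per other list in all nuclei. The alternatives without precursors, without shared barcodes and the edgeR test between classes were added after the data were seen.

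Same-numbered libraries of the groups correlated in their deviations from the group means at 0.04, 0.18 and 0.20 in all nuclei, so the numbers were not taken as pairs. In oligodendrocytes (0.18, 0.14 and 0.42) and endothelial nuclei (0.28, 0.13 and 0.28) every pair was above 0.1, and the fit with the number as a block called 0 of the genes there too.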

Additional observations from a re-analysis of the deposited data

How the results depend on the processing

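For CIH against normoxia, 0 genes were called in 9 sums (all nuclei and 8 classes), and the count differed from this under the following alternatives. All nuclei had 1 call in DESeq2 (Gstm1; 1.18% of all genes were called) and 0 to 1 when each library was left out, the 1 being Gstm1 without the third CIH library (2.62%). They had 2 (Gstm1 and Me1, at -0.36) without that library and the shared barcodes (2.76%). Granule neurons had 1 (Gstm1; 0.502%) and excitatory neurons 1 (Gpx4; 0.937%) with no filter on low counts. The astrocyte median of 0.20 was 0.06 with the replicate block and 0.04 with the stricter gate. The replicate block changed no call: 0 genes were called in each of the 9 sums with it and 0 in the test between classes. Hmox1 in all nuclei changed sign, with a range of -0.57 (CIH 3 left out) to 0.41 (CIH 1 left out) and with -0.0047 (normoxia 3 left out), -0.0044 (deeper nuclei, 1000 genes or more and 1% mitochondrial UMIs or less) and -0.60 (CIH 3 and the shared barcodes left out). Txnrd1 had a range of -0.084 (normoxia 3 left out) to 0.011 (normoxia 2 left out).

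Counts by class moved by over 1.5 times as follows. With limma, oligodendrocytes had 7 higher and 2 lower, precursors 1 and 21, granule neurons 1 and 8, excitatory neurons 4 and 7 and inhibitory neurons 4 and 6, and astrocytes had 0 lower. In the normoxia libraries alone, oligodendrocytes had 8 higher and 6 lower and granule neurons 2 higher, and the lower counts were 3 in precursors, 0 in astrocytes, 2 in endothelial nuclei, 11 in excitatory and 8 in inhibitory neurons. Among the deeper nuclei, endothelial nuclei had 5 higher and 1 lower, and the lower counts were 6 in oligodendrocytes, 5 in precursors, 0 in astrocytes, 9 in granule and 11 in excitatory neurons. The stricter gate gave 5 lower in precursors and 0 in astrocytes, and the comparison without precursors gave 2 lower in astrocytes. Leaving out each library gave 5 to 9 lower in precursors, 0 to 1 in astrocytes and 3 to 5 in endothelial nuclei. The shares of all genes called in these fits are not given here, so the shifts cannot be read as particular to the redox genes. The cause of the shifts was not tested. The other 429 alternatives of the counts stayed within 1.5 times. They include CIH counts of 0 that stayed at 0, also in precursors, where 0 genes passed the filter. The 15 pairs of gene and class named by rule kept direction and call in all of theirs, but were picked for large differences in these same data.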

Other observations

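Classes too small to test held high levels of a few of these genes, given here over all libraries with exact Poisson 95% intervals that cover counting error only. Fibroblast-like nuclei (129) had 497 UMIs of the cystine importer gene Slc7a11, or 1551 CPM (1417 to 1693), with UMIs in 6 of 6 libraries, against a mean of 232 CPM in astrocytes, the highest tested class. Perivascular macrophage-like nuclei (54) had 17 UMIs of Cybb, the phagocyte oxidase gene, or 214 CPM (125 to 343), against 4.21 CPM in microglia. They also had 189 CPM of Cyba (106 to 312), 189 CPM of Nfe2l2 and 113 CPM of Cat. Mural-like nuclei (182) had 16 UMIs of Sod3, the secreted superoxide dismutase, or 58.0 CPM (33.1 to 94.1), against 7.76 CPM in endothelial nuclei, and 97.8 CPM of Prdx5 against 50.6 CPM there. Of the fibroblast-like nuclei 55.8%, of the macrophage-like 48.1% and of the mural-like 33.0% lay at the edge of the gate.

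Within classes, some genes of the related lists had CIH libraries on 1 side of normoxia without passing the edgeR test. They fall outside the naming rule and were picked out after their values were seen. Of all genes tested, 6.16% were higher without overlap in oligodendrocytes, 5.95% in microglia, 8.23% in endothelial nuclei and 7.45% in excitatory neurons. In endothelial nuclei 5.39% were lower. In oligodendrocytes Oxr1, an oxidation resistance gene, was 752, 702 and 700.4 CPM in CIH against 470, 483 and 610 CPM in normoxia (log2 fold change 0.47, adjusted p = 0.368). In endothelial nuclei Ftl1, the ferritin light chain, was 180, 147 and 98.0 CPM in CIH against 323, 291 and 194 CPM in normoxia (-1.02, adjusted p = 0.584), while Xdh (0.67) and Selenop (0.69) were higher. In microglia Mafg, a partner of NRF2, was 86.7, 137 and 129 CPM in CIH against 61.2, 85.6 and 55.7 CPM in normoxia (0.79, adjusted p = 0.975). Nos1 was higher in all CIH libraries in oligodendrocytes (0.86) and excitatory neurons (0.63). In inhibitory neurons its groups overlapped, at 39.8, 42.4 and 23.2 CPM in CIH against 27.4, 29.2 and 27.0 CPM in normoxia (0.29).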
